A study of Homo sapiens with 4 samples.

Results

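Exosome-treated MCF10A cells and MDA-MB-231 cells were each measured on 1 bead array, and both arrays gave signal above background at few probes. The transcripts that remained on this pair of arrays are compared here. Probes were taken where the detection p-value, a probe's rank against the negative controls of its own array, was below 0.01 on either array. The rule gave 3214 of 47322 probes and, through probes with a single gene symbol, 1990 of 20043 genes (9.93%).

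MCF10A cells are breast epithelial cells that do not form tumours, and MDA-MB-231 cells come from a breast cancer and have mesenchymal features. The 4 samples, each on 1 array, were MCF10A cells exposed to exosomes of MDA-MB-231 cells, MCF10A cells exposed to such exosomes carrying a Dicer antibody, MDA-MB-231 cells with no treatment, and MCF10A cells with no treatment. The exosomes were added to the culture medium, and every culture used serum from which exosomes had been removed. Extraction is described for isolated exosomes and for cells, and the label of each array names cells. The number of cultures behind each RNA sample is not given in the labels, so no difference below has a replicate check, an error or a test.

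Exosomes are small vesicles that cells release and that carry protein and RNA to other cells. Dicer cuts microRNA precursors into mature microRNAs, and the study asked how microRNA processing in exosomes bears on non-tumorigenic cells. Most RNA in any cell is ribosomal RNA, and among messenger RNAs those of ribosomal proteins and translation factors are usually the most abundant. The array reads labelled copies of messenger and other long RNAs with gene-specific probes and does not measure mature microRNAs.

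The exosome array detected 2526 probes (5.34%) and the MDA-MB-231 array 2573 (5.44%), against 19261 (40.7%) on the Dicer antibody array and 19150 (40.5%) on the untreated array. A threshold of 0.01 passes 1% of probes by its definition, which would be 473 probes. The median signal over all probes was 52.7 units on the exosome array and 51.8 on the MDA-MB-231 array, so most probes lay at background on both. The 100 brightest probes held 51.0% of all signal above the median on the exosome array and 61.8% on the MDA-MB-231 array, against 11.0% on the Dicer antibody array and 9.56% on the untreated array. The amount and quality of RNA put on each array are not given in the labels, and their part in these values was not tested.

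The cell line labels could not be checked from these signals. None of the 7 measured MCF10A marker genes passed on either array, among them KRT5, CDH1 and EPCAM, whose brightest probes gave 47.1, 46.7 and 61.7 units on the exosome array and 44.8, 47.0 and 58.2 on the MDA-MB-231 array. Of 9 measured MDA-MB-231 markers, the same 3 passed on each array. They were LGALS1, a galectin, with 16782.2 units on the exosome array and 6941.7 on the MDA-MB-231 array, VIM, the mesenchymal filament vimentin, with 105.8 and 109.6 units in that order, and CAV1, the caveolar coat protein, with 93.4 and 75.0 units. VIM reached 13261.9 units on the Dicer antibody array and 16100.7 on the untreated array. On those arrays labelled MCF10A, 6 and 10 of 10 fibroblast markers passed, the Dicer antibody array first, while 3 and 2 of 7 MCF10A markers did. Summed over the MCF10A list, signals were 379.8 units on the exosome array and 363.7 on the MDA-MB-231 array, close to background for 7 genes. No luminal, fibroblast or endothelial marker passed on either array of the pair, and the 1 leukocyte marker that did, CD14, had 84.0 units on the exosome array and 68.1 on the MDA-MB-231 array.

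The arrays largely shared the probes they detected. Both detected 1885 probes, which is 74.6% of the exosome list and 73.3% of the MDA-MB-231 list, and 1215 genes were detected on both, 76.7% of the exosome list and 75.0% of the MDA-MB-231 list. Over the 1885 shared probes the log2 signals of the 2 arrays had a Pearson correlation of 0.91 and a Spearman correlation of 0.87. Over the same probes the exosome array had Pearson correlations of 0.64 with the Dicer antibody array and 0.60 with the untreated array. The MDA-MB-231 array had 0.64 and 0.59 in the same order. The Dicer antibody and untreated arrays had 0.93 with each other, with a Spearman correlation of 0.92. These probes were chosen for detection on the exosome and MDA-MB-231 arrays, and probe chemistry is common to all 4 arrays. Of the 1885 probes, 102 (5.41%) were detected on neither of the other arrays, and of all 3214 probes 477 (14.8%) were.

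Members near the threshold were dim. On the exosome array the 23 probes just inside it, at a detection p of 0.00909, had 81.0 to 81.2 units, and the 202 probes just outside, at 0.01039, had 79.6 to 81.0 units. On the MDA-MB-231 array 236 probes just inside had 67.9 to 68.9 units, and the 11 just outside had 67.8 units. Membership of probes seen on only 1 array therefore often turned on a few units. Deposited signal was higher on the exosome array at 1753 of the 1885 shared probes (93.0%), with a median log2 ratio of 0.55.

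**Figure D1:**
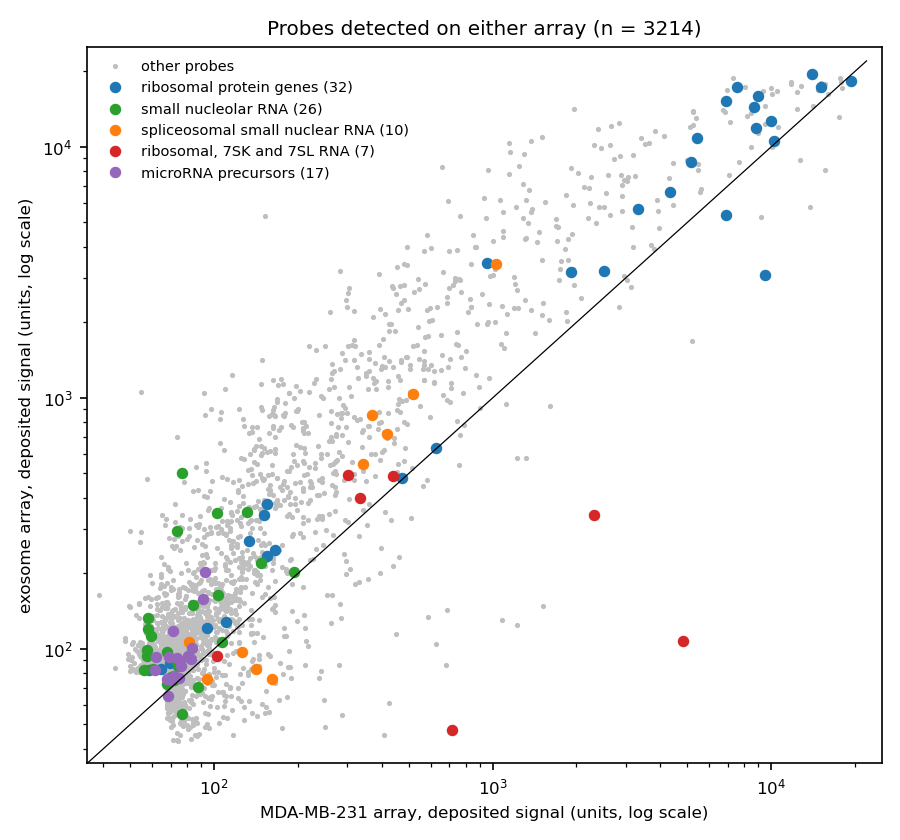
Deposited signal of the 3214 probes detected on either array, exosome array (vertical, log scale) against MDA-MB-231 array (horizontal, log scale), with RNA classes in colour and the line of equal signal. Most points lie above the line, whereas the ribosomal RNA probes at 2315.3, 4842.2 and 712.3 units on the MDA-MB-231 array lie far below it.

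Protein-coding messages made up most of what remained. Of 27379 probes for protein-coding genes, 1987 (7.26%) were detected on either array, 1584 on the exosome array and 1612 on the MDA-MB-231 array. A further 1083 detected probes (33.7% of the 3214) had no single gene symbol in the array annotation and are counted here without names. The classes below were detected on either array at shares to be read against 6.79% for all probes.

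**Figure D2:**
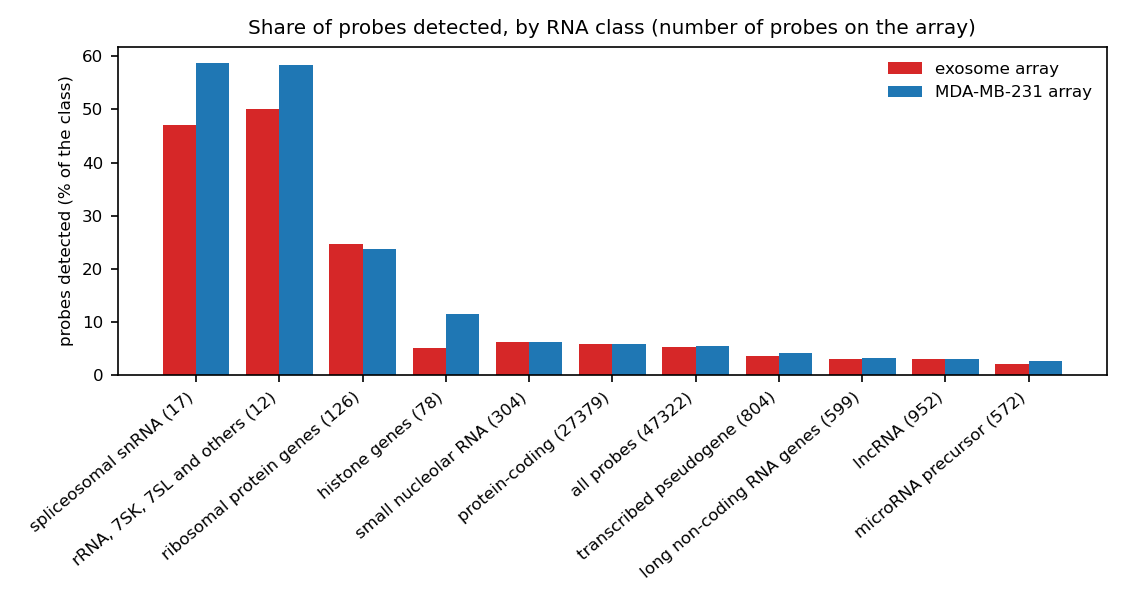
Percentage of probes detected (vertical axis) in each RNA class on the exosome array (left bars) and the MDA-MB-231 array (right bars), with the number of probes of the class on the array in brackets. Spliceosomal small nuclear RNA probes reached 47.1% on the exosome array and 58.8% on the MDA-MB-231 array, and microRNA precursor probes 2.10% and 2.62%.

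The ribosomal RNAs RNA28SN5 and RNA18SN5 were far lower on the exosome array. RNA28SN5 had the widest gap between the arrays of the 40 genes named below. The brighter probe for RNA28SN5, the large-subunit ribosomal RNA, gave 107.8 units on the exosome array and 4842.2 on the MDA-MB-231 array, with 6636.6 on the Dicer antibody array and 8661.9 on the untreated array. Its second probe gave 47.7 units on the exosome array, which is not above background, and 712.3 on the MDA-MB-231 array. RNA18SN5, the small-subunit ribosomal RNA, gave 340.8 units on the exosome array and 2315.3 on the MDA-MB-231 array, with 4385.2 and 3714.9 on the Dicer antibody and untreated arrays. The exosome array was thus the low one of the 4 for both RNAs. After background correction and quantile scaling of the 2 arrays, the log2 differences, exosome minus MDA-MB-231, were -7.00 for RNA28SN5 and -4.28 for RNA18SN5. The smallest differences over 7 ways of background correction and scaling were 7.99-fold and 3.39-fold lower on the exosome array. Ribosomal RNA is mostly not polyadenylated, and the priming used for reverse transcription is not given in the labels.

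Other structural RNAs did not follow RNA28SN5 and RNA18SN5. RNA5S9, the 5S ribosomal RNA, gave 490.9 units on the exosome array and 301.9 on the MDA-MB-231 array. RN7SK, which holds back transcription elongation, gave 400.2 and 333.3 units at its brighter probe, exosome array first. RN7SL1, the RNA of the signal recognition particle, gave 486.9 and 438.9 units in the same order, against 11720.4 on the Dicer antibody array and 14253.8 on the untreated array. In all, 7 of 12 probes of this class (58.3%) were detected. On the quantile scale 5 were at least 2-fold lower on the exosome array, against 7.13% of all probes detected on either array. Of the 5, 3 were the RNA28SN5 and RNA18SN5 probes above. For RN7SL1 and this RN7SK probe, whose deposited signals were slightly higher on the exosome array, the lower call came from the scaling and turned round without it. A second RN7SK probe gave 93.7 units on the exosome array and 102.8 on the MDA-MB-231 array, and was lower in every setting but under 2-fold.

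Small nuclear RNAs of the spliceosome stood out by detection. Of 17 probes, 8 were detected on the exosome array and 10 on the MDA-MB-231 array. The brightest, RNU6-1, the catalytic U6 RNA, gave 3405.2 units on the exosome array and 1027.2 on the MDA-MB-231 array, with 1556.2 and 2961.4 on the Dicer antibody and untreated arrays. The probe for RNVU1-18, a U1 variant, gave 1039.7 units on the exosome array and 518.0 on the MDA-MB-231 array, and RNU1-1 gave 851.5 and 369.7 units. The U1 genes are near-identical copies that probes may not tell apart. RNU11, of the minor spliceosome, ran the other way at both probes, with 83.2 and 75.9 units on the exosome array and 141.8 and 161.0 on the MDA-MB-231 array. So did RNU4-1 and RNU4-2, with 75.9 and 97.2 units on the exosome array and 94.4 and 126.4 on the MDA-MB-231 array. On the quantile scale these 4 probes were at least 2-fold lower and none of the class was higher. Among all 3214 probes 7.13% were lower and 8.03% higher. The class had a median log2 difference of -0.53 over probes detected on both arrays, against 0.02 over all probes. On that scale RNVU1-18 had -0.44 and RNU1-1 had -0.14, so their signs came from the scaling, and RNU6-1 had 0.22.

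Small nucleolar RNAs, which guide chemical modification of ribosomal and spliceosomal RNA, were detected at 26 of 304 probes (8.55%), 19 on each array. At 4 probes the exosome array was at least 2-fold higher and at 1 it was lower. The lower one, SNORD139, gave 203.2 units on the exosome array and 192.8 on the MDA-MB-231 array, so its call came from the scaling. SNORA24 gave 503.9 units on the exosome array and 76.7 on the MDA-MB-231 array, with 315.3 and 95.6 on the Dicer antibody and untreated arrays. SNORA61 gave 294.2 units on the exosome array and 73.7 on the MDA-MB-231 array, with 963.2 and 459.2 on the other arrays in that order. Both guides are of the H/ACA type, which directs pseudouridylation. SNORA24 was at least 2.53-fold higher and SNORA61 at least 2.27-fold higher on the exosome array in all 7 settings.

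MicroRNA precursors were seldom detected. Of 572 probes, 10 passed on both arrays, 12 on the exosome array and 15 on the MDA-MB-231 array, so the share on either was 2.97%. On the quantile scale no probe differed by at least 2-fold, against 8.03% higher and 7.13% lower among all probes detected on either array. The brightest was MIR939, with 201.9 units on the exosome array and 93.1 on the MDA-MB-231 array. MIR939 was thus past 2-fold in deposited signal, and 1.67-fold higher on the exosome array on the quantile scale. MIR1185-1 gave 158.2 and 91.6 units, MIR574 gave 117.8 and 71.0, and MIR129-2 gave 101.1 and 83.2, exosome array first each time. MIR125B2, whose mature product is a well-studied breast cancer microRNA, passed only on the exosome array, with 93.1 units against 62.1, and MIRLET7F1, of the let-7 family, passed only on the MDA-MB-231 array, with 77.9 units on the exosome array against 72.0. Since the exosome array needed more units to pass, these one-sided calls do not rank the arrays.

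Of the 17 detected precursor symbols, 15 had mature sequences in RefSeq (GRCh38.p14), and the 25 mature sequences carried 25 distinct seeds, so none shared a seed. Since the study's question concerned microRNAs, mature sequences of MIR1185-1, MIR574, MIR129-2, MIR125B2 and MIRLET7F1 are shown, both arms for the first 2 and the 5p arm for the others, 5′ to 3′, with the seed (bases 2 to 8) in capitals. The array did not read these mature forms. They lie at chr14:101043029-101043050 and chr14:101042991-101043011 for MIR1185-1, chr4:38868092-38868113 and chr4:38868056-38868078 for MIR574, and chr11:43581408-43581428 for MIR129-2, all on the plus strand, and at chr21:16590253-16590274 for MIR125B2 and chr9:94176353-94176374 for MIRLET7F1, plus strand also.
hsa-miR-1185-1-3p: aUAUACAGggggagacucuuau
hsa-miR-1185-5p: aGAGGAUAcccuuuguauguu
hsa-miR-574-3p: cACGCUCAugcacacacccaca
hsa-miR-574-5p: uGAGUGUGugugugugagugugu
hsa-miR-129-5p: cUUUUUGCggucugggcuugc
hsa-miR-125b-5p: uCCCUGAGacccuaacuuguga
hsa-let-7f-5p: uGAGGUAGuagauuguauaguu

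RefSeq types 952 probes as long non-coding RNA, of which 41 (4.31%) were detected on either array. Of these, 1 was at least 2-fold lower on the exosome array, against 7.13% of all probes detected on either array. That probe is HCG4, described below. Genes with names of the LINC, SNHG, antisense or divergent transcript kind, a narrower set, were detected at 29 of 599 probes (4.84%). None of these probes was 2-fold different on the quantile scale. Signals in that set ran up to 130.3 units on the exosome array and 94.6 on the MDA-MB-231 array, both for LINC00200. SNHG1, a host of small nucleolar RNAs, gave 77.9 units on the exosome array and 69.5 on the MDA-MB-231 array, against 8120.8 on the Dicer antibody array and 554.0 on the untreated array. Replication-dependent histone genes, whose messages lack a poly(A) tail, passed at 4 of 78 probes on the exosome array and 9 on the MDA-MB-231 array. At 2 of the 10 probes detected on either array, H2AC4 and H2AC25, the log2 difference was at or past -1 on the quantile scale. Among all probes detected on either array 7.13% were that low. H2AC4 gave 259.3 units on the exosome array and 245.9 on the MDA-MB-231 array, so its call came from the scaling, and H2AC25 gave 62.0, not above background, and 109.2.

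The brightest messages were those of the translation machinery. Ribosomal protein genes, whose products build the ribosome, were detected for 27 of 76 genes on the exosome array and 25 on the MDA-MB-231 array, against 7.91% and 8.08% of all genes. RPS12 gave 18349.3 units on the exosome array and 19398.3 on the MDA-MB-231 array. RPS27 gave 19477.1 and 14072.2 units, and RPL12 gave 17384.2 and 15102.8 units, exosome array first. These probes were picked as bright on the pair. On the Dicer antibody and untreated arrays they lay in the same range, from 11206.8 units for RPL12 to 19043.9 for RPS12. Of the 12 brightest genes over the pair, the others were RPL27, RPL11, RPL30, the ribosomal protein pseudogene RPL13AP5, EEF1A1, which delivers tRNA to the ribosome, UBB, a ubiquitin gene, TUBA1A, an alpha tubulin, H2AZ1, a histone variant, and FTL, ferritin light chain. H2AZ1 gave 18812.7 units on the exosome array and 7278.0 on the MDA-MB-231 array, and FTL ran the other way, with 8058.9 and 15661.7 units. The second FTL probe gave 5762.2 units on the exosome array and 13762.6 on the MDA-MB-231 array, the same direction. None of these 12 genes was 2-fold different in every setting. Some other ribosomal protein genes were dim on the pair. RPL3 gave 128.6 units on the exosome array and 110.6 on the MDA-MB-231 array. It gave 14321.9 and 11487.3 units on the Dicer antibody and untreated arrays, each of which detected 73 of the 76 genes. Summed over the 76 genes, signals were 175457 units on the exosome array and 133399 on the MDA-MB-231 array. On the Dicer antibody and untreated arrays they were 684867 and 629723 units.

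For many abundant genes, 1 probe had a signal like that of the other arrays while another lay at background. EEF1A1 has 4 probes. They gave 13115.7, 335.9, 67.0 and 52.4 units on the exosome array, and the same probes gave 17585.7, 209.4, 90.2 and 60.0 on the MDA-MB-231 array. On the Dicer antibody array they gave 21381.9, 19384.8, 21230.5 and 587.3 units. RPL12 gave 17384.2 and 74.1 units at its 2 probes on the exosome array and 15102.8 and 59.7 on the MDA-MB-231 array, against 15372.4 and 11093.7 on the Dicer antibody array. TUBA1A showed the same split on both arrays. The dimmer UBB probe gave 119.8 units on the exosome array, above background, and 64.6 on the MDA-MB-231 array, not above it. RPL11 showed no split, with 12666.5 and 11874.4 units on the exosome array and 9979.5 and 8844.0 on the MDA-MB-231 array.

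Reference genes other than PDGFA were dimmer on the pair than on the Dicer antibody and untreated arrays. ACTB, cytoplasmic actin, gave 111.7 units at its brightest probe on the exosome array and 149.5 on the MDA-MB-231 array, against 12532.8 on the Dicer antibody array and 17538.4 on the untreated array. GAPDH, a glycolytic enzyme, gave 288.8 and 151.1 units on the pair, exosome array first, against 14915.8 and 14675.6 on the Dicer antibody and untreated arrays. LDHA, DICER1 and AGO2 were not above background on either array of the pair. PDGFA, a growth factor ligand, gave 4279.4 units on the exosome array and 1311.7 on the MDA-MB-231 array at 1 of 3 probes, above the 554.7 and 52.7 units of the Dicer antibody and untreated arrays. Its other probes did not exceed 91.8 units on any array.

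Counted over the array, 206 probes had at least 10000 units on both the Dicer antibody and the untreated array. Of these, both arrays of the pair detected 103, the exosome array 104 and the MDA-MB-231 array 112. At 5000 units or more, 215 of 486 such probes (44.2%) were detected on either array of the pair, and at 1000 units or more, 648 of 2749 (23.6%). There were 1876 genes with several probes, all detected on both the Dicer antibody and the untreated array. On either array of the pair all probes were detected for 45 of them, some but not all for 397, and none for 1434.

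**Figure D3:**
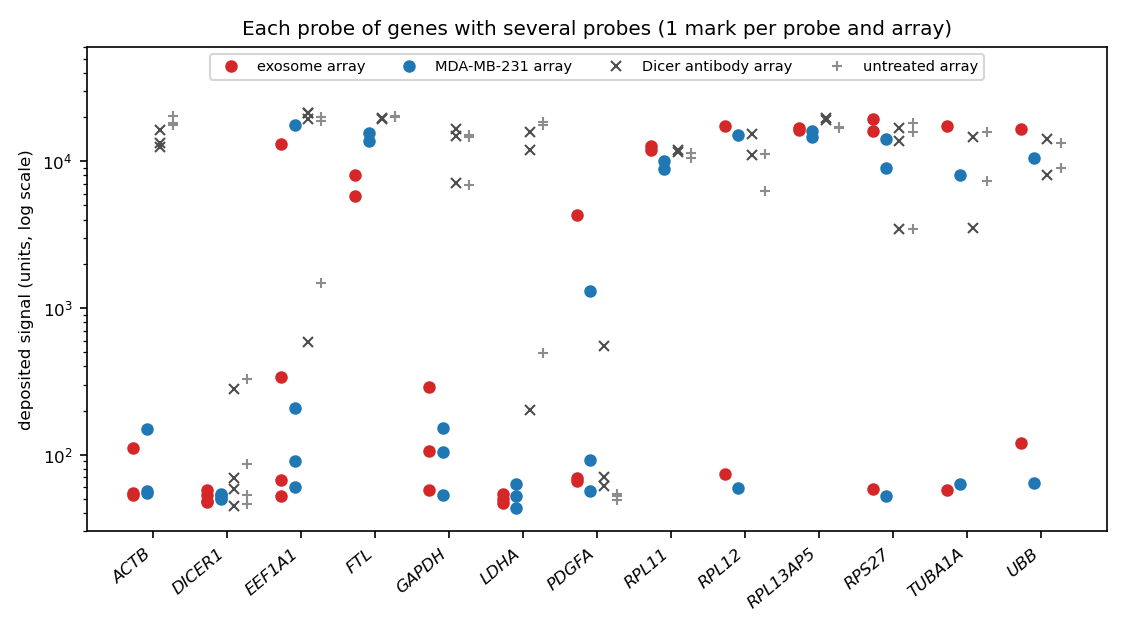
Deposited signal (log scale) of each probe for genes among the 12 brightest or the reference genes that have several probes, on the exosome, MDA-MB-231, Dicer antibody and untreated arrays. Probes of EEF1A1, RPL12, RPS27, TUBA1A and UBB split on the exosome and MDA-MB-231 arrays into bright ones and dim ones, while both RPL11 probes lie between 8844.0 and 12666.5 units on all arrays.

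On the quantile scale 348 of the 1990 genes (17.5%) were past 2-fold. The exosome array was the higher one for 210 of them (10.6%) and the lower one for 138 (6.93%). The median log2 difference of genes detected on both arrays was 0.06. In each of the 7 settings, 50 genes (2.51%) were 2-fold different in the same direction, 29 higher (1.46%) and 21 lower (1.06%). A gene stands here for its brightest detected probe, and where only 1 array detected it, the difference is a bound against the lowest detected signal of the other. Of 43 genes whose brightest probe differed by 2-fold and that had a second detected probe, the second had the same sign in 35 and the opposite sign in 8. Without normalization between the arrays, calls moved to 655 higher and 40 lower, so the direction counts depend on the scaling.

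Genes detected on both arrays and higher on the exosome array in all 7 settings were led by RBM12, an RNA-binding protein. It gave 699.6 units on the exosome array and 73.8 on the MDA-MB-231 array, at least 3.23-fold in any setting, with 644.9 and 868.6 units on the Dicer antibody and untreated arrays. A second RBM12 probe gave 93.2 units on the exosome array and 76.2 on the MDA-MB-231 array, a log2 difference of -0.10. SCO2, a copper chaperone of cytochrome c oxidase, gave 1045.4 and 91.7 units, exosome array first. For both genes the exosome array was near the level of the arrays with many detected probes, and the MDA-MB-231 array was near background.

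The other genes named on that side were ANKRD49, an ankyrin repeat protein, NOMO2, an endoplasmic reticulum membrane protein with near-identical copies, MYCBP2, a ubiquitin ligase, CEP85L, a centrosomal protein, TLCD1, a membrane protein, and UBAP2L, an RNA-binding protein of stress granules. CEP85L gave 857.9 units on the exosome array and 93.1 on the MDA-MB-231 array, with 106.0 and 109.9 on the Dicer antibody and untreated arrays. It was thus high on the exosome array alone, at 1 of 3 probes. UBAP2L gave 1230.9 units on the exosome array and 115.8 on the MDA-MB-231 array. The second NOMO2 probe was not above background on either array of the pair.

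Lower on the exosome array in all 7 settings, next to RNA28SN5 and RNA18SN5, was PKM, the pyruvate kinase of glycolysis. It gave 124.3 units on the exosome array and 1220.3 on the MDA-MB-231 array, a difference of at least 4.58-fold, at 1 of 3 probes. The other PKM probes were not above background on either array of the pair, although they reached 8036.6 and 11134.9 units on the untreated array. HCG4, a non-coding gene of the HLA region, gave 148.3 and 1511.7 units, exosome array first. PSMC1, an ATPase of the proteasome's regulatory particle, gave 129.9 units on the exosome array and 1081.4 on the MDA-MB-231 array, while its second probe was not above background on either. TCEA3, an elongation factor of RNA polymerase II, gave 104.3 and 625.5 units in the same order. The rest of the group were FOSB, a transcription factor of the AP-1 family, CLK3, a kinase of splicing factors, RASSF1 and RGS10. RASSF1 is a Ras-association protein and RGS10 a regulator of G protein signalling. These genes had 81.9 to 134.1 units on the exosome array and 187.7 to 588.1 on the MDA-MB-231 array. Other probes of HCG4, CLK3, RASSF1 and RGS10 were not above background on either array of the pair.

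Of 373 genes whose brightest probe passed only on the exosome array, 48 had a bound of 2-fold or more, 11 in all 7 settings. PABPC1, the main cytoplasmic poly(A)-binding protein, gave 1055.1 units on the exosome array and 54.6 on the MDA-MB-231 array, at least 5.74-fold higher. Its other probe, the brighter one on the Dicer antibody and untreated arrays, gave 98.2 and 81.8 units, exosome array first, a log2 difference of -0.23. The 2 probes thus disagreed. HSPA8, a constitutive chaperone, gave 473.2 units on the exosome array and 57.2 on the MDA-MB-231 array, at least 4.06-fold higher, and its second probe was not above background on either.

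Next came HINT3, a nucleotide hydrolase, RND1, SLC4A1AP, DOLK, the dolichol kinase of glycosylation, BTN2A2, a butyrophilin, FAM98B, EIF4A2, an RNA helicase of translation initiation, and PPP1R3F, a subunit of protein phosphatase 1. They had 199.0 to 343.0 units on the exosome array and 49.7 to 67.3 on the MDA-MB-231 array. RND1 gave 329.1 units on the exosome array and 67.3 on the MDA-MB-231 array, with 85.9 and 39.3 on the Dicer antibody and untreated arrays. FAM98B likewise had 232.7 units on the exosome array, against 64.5 on the MDA-MB-231 array, and was not above background on the Dicer antibody or untreated array. Both RND1 and FAM98B were high on the exosome array alone. Other probes of HINT3, BTN2A2 and FAM98B were not above background on either array of the pair.

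Of 409 genes whose brightest probe passed only on the MDA-MB-231 array, 43 had a bound of 2-fold or more, 8 in all 7 settings, and for 22 the bound was 0. ARPC1B, of the actin-branching Arp2/3 complex, gave 60.8 units on the exosome array and 426.2 on the MDA-MB-231 array, at least 5.26-fold lower. PSMC4, a second proteasome ATPase, gave 54.7 and 287.1 units, exosome array first, at least 3.54-fold lower. All 3 PSMC4 probes ran this way, with 48.6 and 70.1 units on the exosome array and 175.8 and 91.1 on the MDA-MB-231 array at the others.

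TMEM259, GET4, which helps insert tail-anchored membrane proteins, DUSP10, a MAP kinase phosphatase, NAMPT, an enzyme of NAD synthesis, POU5F2, a POU domain factor, STMN1, which destabilises microtubules, RNU11 and PTGS1, a prostaglandin synthase, completed the 10 largest bounds. At their brightest detected probe they had 48.9 to 79.1 units on the exosome array, not above background, and 153.9 to 249.4 on the MDA-MB-231 array. The second RNU11 probe was above background on both arrays. Other probes of TMEM259, GET4, NAMPT, STMN1 and PTGS1 were not above background on either array of the pair, so each rests on 1 probe. RNU11 and PTGS1 fell short of 2-fold in the smallest setting, at 1.99-fold and 1.90-fold. POU5F2 was not above background on the Dicer antibody or untreated array either, with 63.7 and 49.4 units.

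**Figure D4:**
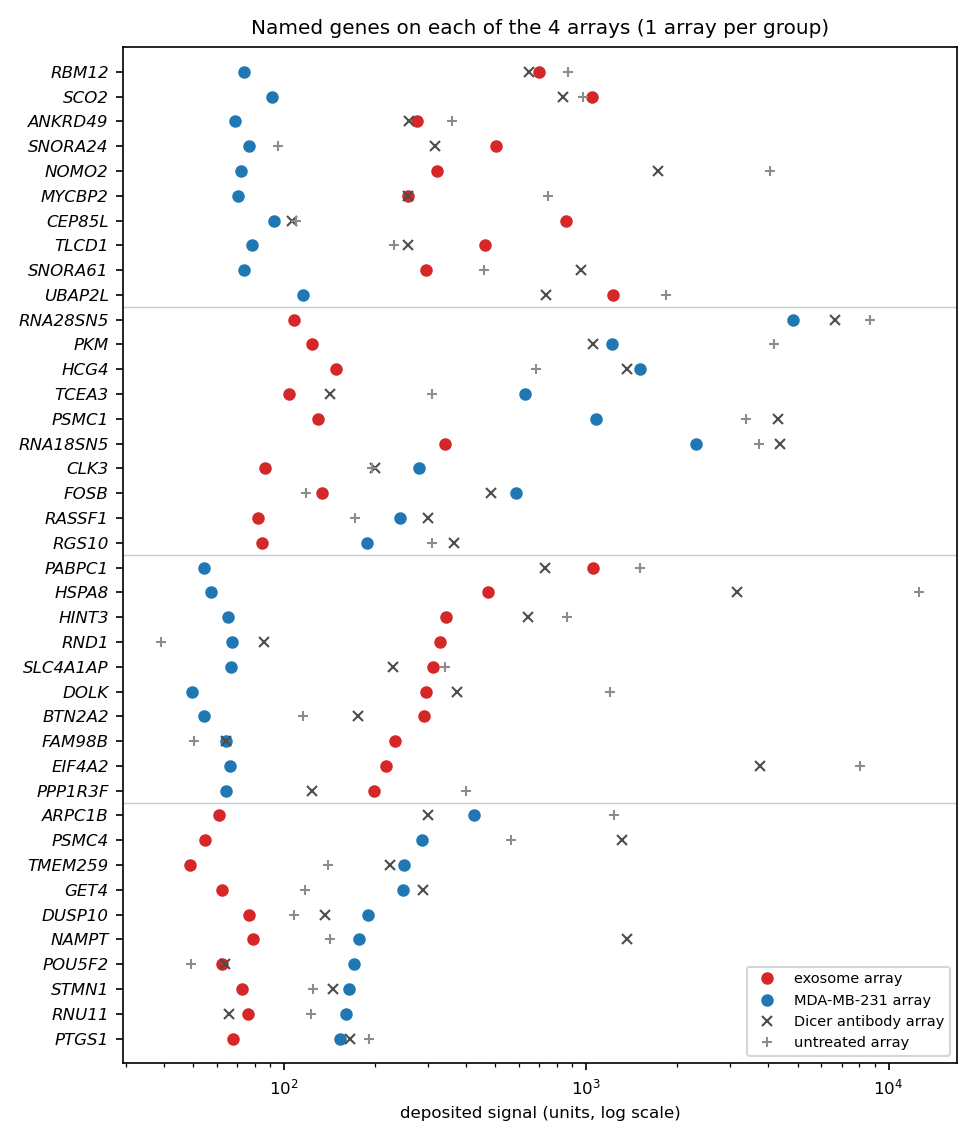
Deposited signal (horizontal, log scale) of the 40 named genes on each of the 4 arrays. From top to bottom are the 10 leading genes detected on both arrays and higher on the exosome array, the 10 lower, the 10 whose plotted probe was detected only on the exosome array and the 10 whose plotted probe was detected only on the MDA-MB-231 array, from RBM12 with 699.6 and 73.8 units to PTGS1 with 67.7 and 153.9 units (exosome array first).

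**Figure D5:**
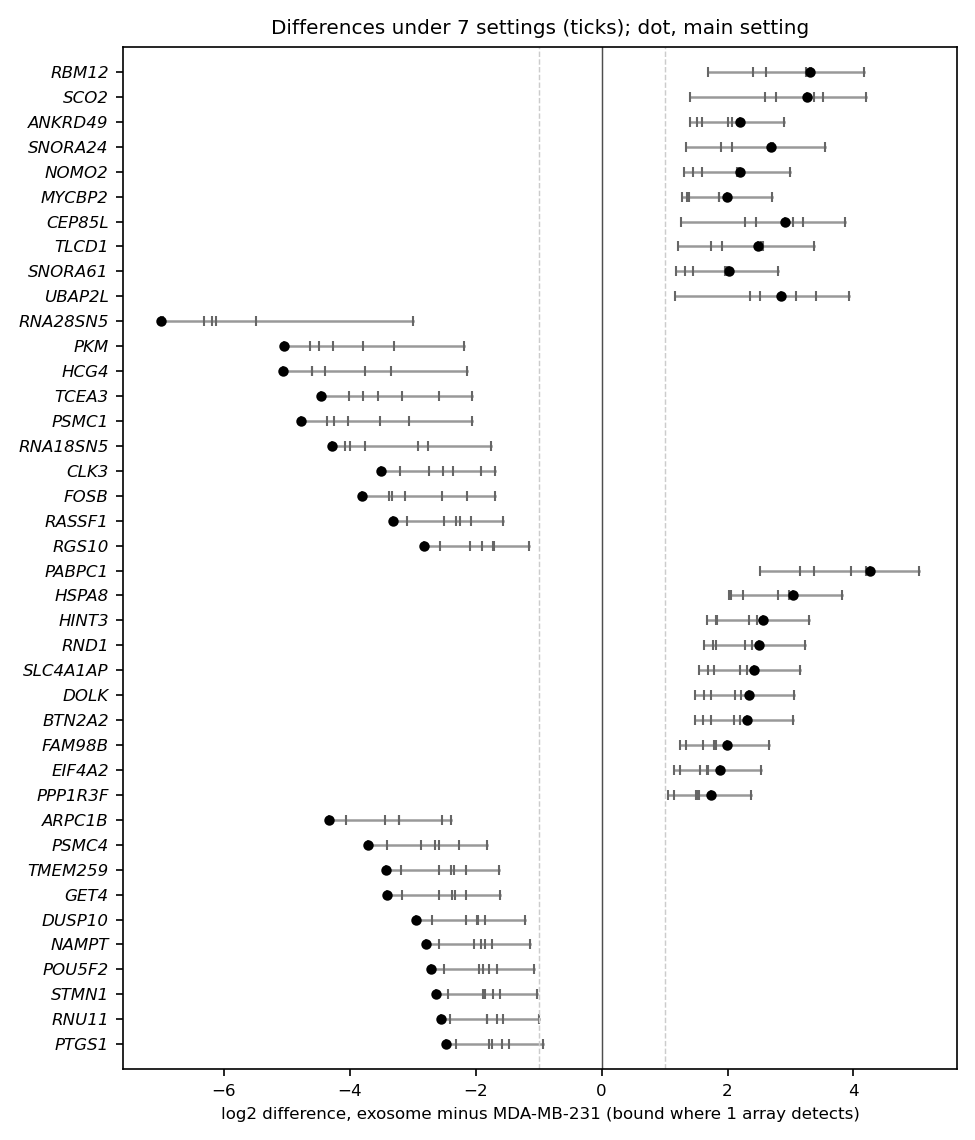
Log2 difference, exosome minus MDA-MB-231, of the same 40 genes under 7 settings of background correction and scaling (ticks), with the quantile scale as a dot and dashed lines at 2-fold. The genes were picked by their smallest difference over these settings, so none could cross 0. The size varies widely, as for RNA28SN5 from -7.00 to -3.00.

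Against 7.91% and 8.08% of all genes, splicing factors and other RNA-binding proteins were detected for 12 of 26 genes on each array. Of these 5 were at least 2-fold higher on the exosome array and 1 lower, and none was so in every setting. Among all genes detected on either array the shares were 10.6% and 6.93%. HNRNPM, a splicing regulator, gave 10541.8 units on the exosome array and 1374.9 on the MDA-MB-231 array. The SR proteins SRSF2 and SRSF1, which select splice sites, gave 8086.9 and 3112.0 units on the exosome array and 960.7 and 390.3 on the MDA-MB-231 array. HNRNPD gave 5307.9 and 765.3 units and HNRNPA2B1 gave 3948.2 and 598.7, exosome array first. HNRNPA1, the lower one, gave 249.5 units on the exosome array and 232.0 on the MDA-MB-231 array, so its call came from the scaling. The median log2 difference of the 11 genes whose brightest probe passed on both was 0.65.

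Translation factors were detected for 11 of 21 genes on each array, against 7.91% and 8.08% of all genes. Of the 12 translation factors detected on either array, PABPC1, EIF4A2 and EIF4G2 were at least 2-fold higher on the exosome array and EIF3F lower. The shares among all genes detected on either array were 10.6% and 6.93%. The median log2 difference was -0.49 over the 9 factors whose brightest probe passed on both arrays, which leaves out PABPC1 and EIF4A2. EIF4G2, a scaffold of translation initiation, gave 10393.5 units on the exosome array and 1145.8 on the MDA-MB-231 array. Of the 27 ribosomal protein genes detected on either array none was 2-fold higher and 5 were lower. The shares among all genes so detected were 10.6% and 6.93%. For the 25 whose brightest probe passed on both arrays the median was -0.21, against 0.06 over all such genes. RPL35A was the 1 lower in every setting, with 3098.3 units on the exosome array and 9528.4 on the MDA-MB-231 array, against 10179.7 and 8108.3 on the Dicer antibody and untreated arrays. RPS20, RPS3 and RPL31, by contrast, gave 477.7, 633.4 and 3208.8 units on the exosome array and 474.6, 623.6 and 2508.9 on the MDA-MB-231 array, so they were lower only after scaling. The other, RPS4X, gave 5362.8 and 6882.1 units, exosome array first.

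Against 9.93% of all genes, 8 of 21 immediate early genes were detected on either array. Of these, JUND and MYC were at least 2-fold higher and FOSB and EGR1 lower, against 10.6% and 6.93% of all genes detected on either array. JUND gave 11817.4 units on the exosome array and 2390.0 on the MDA-MB-231 array. FOSB gave 134.1 and 588.1 units in the same order, and was the only one of the 4 past 2-fold in every setting.

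Of 20 heat shock protein genes, 6 were detected on the exosome array and 4 on the MDA-MB-231 array, against 7.91% and 8.08% of all genes. HSPA8 and CRYAB were at least 2-fold higher on the exosome array, against 10.6% of all genes detected on either array. CRYAB, a small heat shock protein, gave 1046.7 units on the exosome array and 186.5 on the MDA-MB-231 array. Of 21 genes of microRNA processing and export 3 were detected on each array, again against 7.91% and 8.08% of all genes. RAN, the GTPase of nuclear transport, was higher, with 8422.7 and 1242.5 units, exosome array first. Against 9.93% of all genes, 3 of 22 interferon response genes and 3 of 18 p53 targets were detected on either array. IFITM1 was higher at 175.8 against 77.2 units, the MDA-MB-231 array second. BAX was lower at 444.3 against 563.8 units in the same order. These single calls of RAN, IFITM1 and BAX stand beside 10.6% higher and 6.93% lower among all genes detected on either array. In the smallest setting CRYAB, RAN, IFITM1 and BAX differed by 1.46-fold, 1.42-fold, 1.59-fold and 1.27-fold. Detected on either array were 4 of 27 cell cycle genes and 4 of 25 genes of oxidative phosphorylation. So were 3 of 22 Polycomb and chromatin modifiers and 2 of 17 genes of exosome formation, beside 9.93% of all genes. On the quantile scale none of these detected genes was 2-fold different, against 17.5% of all genes detected on either array. Deposited signals of some lay further apart. CCNA2, a mitotic cyclin, gave 779.3 units on the exosome array and 189.6 on the MDA-MB-231 array. In the same order EZH2 of the Polycomb and chromatin modifier list gave 1278.1 and 269.4 units, and was 1.94-fold higher on the quantile scale. COX5B of oxidative phosphorylation gave 769.1 and 192.0 units, and FLOT2 of exosome formation gave 1081.9 and 356.8. DNMT3B of the Polycomb and chromatin modifier list ran slightly the other way, at 69.5 and 71.6 units.

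Most metabolic and structural genes listed were not above background on the pair. Over all genes, 7.91% passed on the exosome array and 8.08% on the MDA-MB-231 array. Glycolysis genes were detected for 5 of 18 (27.8%) on each array, with PKM as the 1 lower. Oxidative phosphorylation genes were detected for 3 of 25 on the exosome array and 4 on the MDA-MB-231 array, against all 25 on each of the other arrays. Metallothioneins, which bind metal ions, were detected for 0 of 10 genes on both arrays, with summed signals of 530.4 and 521.6 units, exosome array first, against 19089.4 on the Dicer antibody array and 25708.0 on the untreated array. Of 27 mesenchymal and matrix genes, VIM alone was detected. Of 30 epithelial genes, PKP3, a desmosomal plakophilin, passed on the MDA-MB-231 array alone, with 49.0 units on the exosome array and 92.8 on the MDA-MB-231 array. Summed signals of the epithelial list were 1675.3 units on the exosome array and 1649.2 on the MDA-MB-231 array.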

How the data were processed

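RNA of 4 samples, 1 array each, was hybridised to a 1-colour Illumina bead array with 47322 probes. The deposited table gives a linear intensity per probe and array, without background subtraction, and a deposited detection p-value beside it. Per the submitters' processing notes the authors used limma. Not given in the sources used here is the scanner software. For this pair the authors' deposited value table was not used: its exosome column holds the detection p-value (largest gap 0.0026), and its MDA-MB-231 column keeps the order of the signals (Spearman 0.99998). Its scale is linear with a median of 55.1, it is not centred, and the normalization behind it is unknown.

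For the exosome array and the MDA-MB-231 array, intensities were background-corrected from the detection p-values, offset by 16, quantile-normalized over these 2 arrays and put on the log2 scale (neqc, limma 3.58.1, R 4.3.3). Later steps used Python 3.11.15, pandas 2.3.3 and numpy 2.4.6. Probes with a detection p-value below 0.01 on either array entered, and a probe detected on 1 array gave a bound against the other array's lowest detected value or its own value, whichever was higher. A gene was its brightest detected probe by mean log2 over the pair. Probe names came from the platform annotation, updated to current RefSeq symbols: 30110 probes had 1 symbol, 8 several and 17204 none, and of the 30110, 30071 matched by gene ID. Old annotation may misname probes, and near-identical copies cannot be told apart. The 7 settings were this one, the same over all 4 arrays, background correction alone, that with a median shift, log2 signal with and without quantile scaling, and an offset of 50.

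Named were, from genes 2-fold the same way in every setting, the 10 highest and 10 lowest by smallest difference, the 10 largest bounds per array, the 12 brightest, detected members of gene lists and RNA classes, and 6 reference genes. Other genes named as probe examples come from these groups. Members and lists were chosen with earlier results of these data known. With 1 array per group no test was run, and precision is limited by that number. The steps were tested on simulated data. The result of 1 gene list is not reported here.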

Additional observations from a re-analysis of the deposited data

How the results depend on the processing

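The main counts were 348 genes at least 2-fold different, 210 higher and 138 lower on the exosome array. Normalized over all 4 arrays they were 167, 88 higher and 79 lower. With background correction alone they were 695, 655 higher and 40 lower, and 94.2% of them were higher, against 60.3% on the quantile scale. Log2 signal with quantile scaling gave 208, 117 higher and 91 lower. Log2 signal with no correction gave 488 higher and 21 lower, 95.9% higher. An offset of 50 gave 230, 133 of them higher. The median log2 difference of genes detected on both arrays was 0.06, and was 0.91 with background correction alone and 0.21 at a detection p below 0.001. Probes detected on either array numbered 3214, with 6207 at a detection p below 0.05 and 1921 below 0.001. A median shift, other detection thresholds, genes detected on both arrays alone, and a mean over probes kept the total within 1.5 times. Of 72 named or listed genes past 2-fold, 8 lower ones turned higher wherever the arrays were not normalized to each other. With background correction alone, and then with no correction, their log2 differences were 0.077 and 0.077 for H2AC4, 0.11 and 0.10 for HNRNPA1, 0.29 and 0.26 for RN7SK, 0.16 and 0.15 for RN7SL1, 0.36 and 0.35 for RPL31, 0.0037 and 0.0094 for RPS20, 0.019 and 0.022 for RPS3, and 0.076 and 0.076 for SNORD139. The cause of these moves was not tested, and dim probes limit every small difference. No paired analysis was possible because each group held 1 array.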
